A study of Mus musculus with 6 samples.

Results

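The enzymes described here activate fatty acids, move them into mitochondria, shorten them by beta-oxidation and make or use ketone bodies. They are 41 genes of the 18448 in the deposited table, picked by gene symbol as members of these pathways and not by a threshold on their values. All 41 were in the table, and 40 had enough counts to be tested. They were measured by RNA sequencing in cultured mouse jejunal organoids, which are small balls of intestinal epithelium grown from tissue of the mid small intestine.

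A long-chain fatty acid is first joined to coenzyme A by an acyl-CoA synthetase, then carried into the mitochondrion by the carnitine shuttle. There it is shortened in repeated rounds by a dehydrogenase, a hydratase, a second dehydrogenase and a thiolase, with the electrons passed on through the electron transfer flavoprotein. Peroxisomes run a parallel chain for very long and branched acids, and ketone bodies are made from, or turned back into, the acetyl-CoA that results. In the small intestine these enzymes are best known from the absorptive enterocytes, and HNF4A, a nuclear receptor of the intestinal epithelium and the liver, is known as an activator of lipid metabolism genes.

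Organoids came from C57BL/6 mice with the genotype Villin-CreERT2; Hnf4a flox/flox, so Cre was expressed from the villin promoter in epithelial cells and both Hnf4a alleles could be cut on exposure to 4-hydroxytamoxifen (4OHT). The 4OHT group received 0.5 µM 4OHT for 24 hours and the DMSO group received vehicle. Both groups carried the same genotype, were grown with 200 ng/mL recombinant mouse Wnt3A and were collected at day 2 of the last passage. Each group had 3 libraries with 31537100 to 40276242 counts each. Exposure to 4OHT, Cre activity and loss of Hnf4a came together in the 4OHT group and cannot be told apart, since no group without floxed alleles was analysed here.

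Hnf4a, the targeted gene, had 436, 424 and 482 CPM, read counts scaled to the library size, in the 4OHT libraries, against 840, 846 and 1021 CPM in the DMSO libraries. The 4OHT values were all below the DMSO values, and the log2 fold change of 4OHT over DMSO was -1.01 (standard error, SE, 0.0997; adjusted p = 0.0124). Hnf4a reads remained in all 4OHT libraries, and since counts are summed over the whole gene, they do not say whether these reads came from intact or cut alleles. DMSO replicate 3 was unlike DMSO replicates 1 and 2. In a chi-square comparison of counts over genes, per degree of freedom, it differed from them by 64.2 and 58.5, while libraries differed by 15.6 to 31.4 within the 4OHT group and by 7.86 between DMSO replicates 1 and 2. Markers of non-epithelial cells were near 0, with 5 of 12 listed genes in the table and summed levels of 1.57 to 2.37 CPM in the 4OHT libraries and 1.25 to 2.34 CPM in the DMSO libraries. Replicates 1, 2 and 3 of the 2 groups deviated together from their group means, so each comparison was also fitted with the replicate number as a block. A gene is said to be called where its p, adjusted over all 14544 tested genes, was under 0.05.

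Transcripts of nearly all of these enzymes were present in the organoids. Levels per length, in CPM per kilobase of exon, averaged more than 10 over the 6 libraries for 28 genes, 1 to 10 for 12 genes and less than 1 for Pdk4. The highest was Acsl5, an acyl-CoA synthetase of the small intestine, with 168, 174 and 178 CPM per kilobase in the 4OHT libraries and 170, 175 and 191 CPM per kilobase in the DMSO libraries. The 2 groups overlapped, and DMSO replicate 3 was the highest library. Acsl5 alone made up 18.1% to 21.9% of the summed CPM of the 41 genes.

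The next genes in this order were spread over the steps of the pathway. Acaa2, the mitochondrial thiolase, had 81.9, 74.1 and 97.1 CPM per kilobase in the 4OHT libraries and 73.6, 70.9 and 107 CPM per kilobase in the DMSO libraries. Etfa, the alpha subunit of the electron transfer flavoprotein, had 63.2, 64.7 and 74.6 CPM per kilobase in the 4OHT libraries and 70.8, 68.6 and 96.1 CPM per kilobase in the DMSO libraries. Acadl, the long-chain acyl-CoA dehydrogenase, had 56.4, 53.8 and 63.4 CPM per kilobase in the 4OHT libraries and 61.6, 55.7 and 59.4 CPM per kilobase in the DMSO libraries. In these 3 genes the groups overlapped, and replicate 3 was the highest library of its group except for Acadl in the DMSO group. Ech1, an isomerase of unsaturated chains, had 47.6, 49.0 and 54.9 CPM per kilobase in the 4OHT libraries and 42.3, 46.2 and 64.3 CPM per kilobase in the DMSO libraries. Bdh1, the mitochondrial 3-hydroxybutyrate dehydrogenase of ketone body metabolism, had 47.6, 44.6 and 44.2 CPM per kilobase in the 4OHT libraries and 57.9, 55.0 and 54.7 CPM per kilobase in the DMSO libraries. The levels of Acaa2 and Etfa overlapped in both groups, as did those of Acadl and Ech1, while Acsl5 was above every other gene in every library. Ech1 overlapped between the groups, whereas each 4OHT value of Bdh1 lay below each DMSO value. The length used was that of all annotated exons of a gene, over all its transcripts, so this order differs from that by CPM. Hadha, a subunit of the trifunctional protein with 8730 such bases, averaged 268.5 CPM in the 4OHT group and 278.9 CPM in the DMSO group. Acaa2, with 1516 bases, averaged 127.9 and 127.3 CPM in these groups.

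**Figure D1:**
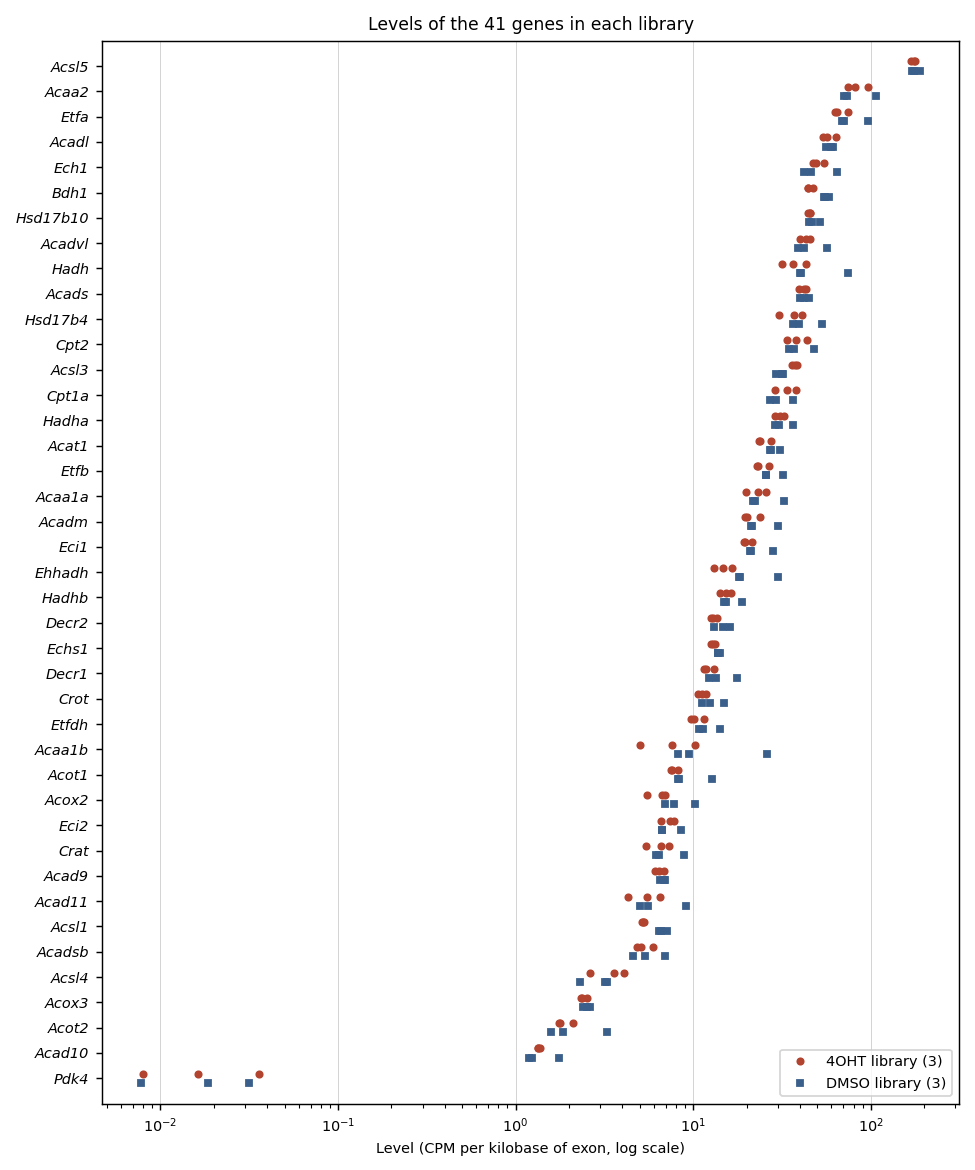
Level of each of the 41 genes in each library, in CPM per kilobase of exon on a log scale, with 4OHT libraries as red circles above DMSO libraries as blue squares and genes ordered by their mean. Acsl5 stands at the top between 168 and 191, and Pdk4 lies below 1 in all 6 libraries, apart from the other 40 genes.

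In the comparison of 4OHT with DMSO, 1 of the 40 tested genes was called lower and 0 were called higher. The gene was Acsl1. Over all tested genes, 0.206% were called lower and 0.701% were called higher. At an unadjusted p under 0.05, 5 of the 40 were lower (Acsl1, Bdh1, Ehhadh, Acox2 and Acat1), beside 6.35% of all tested genes, and 1 was higher (Acsl3), beside 8.65%. With the replicate number as a block, 4 were called lower (Acsl1, Bdh1, Acat1 and Ehhadh), beside 3.0% of all tested genes, and 1 was called higher (Acsl3), beside 3.99% of all tested genes. The calls of the block fit moved with the pairs in it, over the whole table as well. Without replicate 1 of both groups it called 4 lower and 0 higher, beside 2.47% and 1.87% of all genes tested in that fit. Without replicate 2 of both groups it called 0 lower and 0 higher, beside 0.0685% and 0.233%. Without replicate 3 of both groups it called 10 lower and 3 higher, beside 8.16% and 10.1%. The remaining 35 were called in neither fit. Their adjusted p ran from 0.311 to 0.991 without the block and from 0.0629 to 0.976 with it, which does not show that they were unchanged. In RNA from whole organoids, fewer cells of a type and less RNA per cell cannot be told apart.

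**Figure D2:**
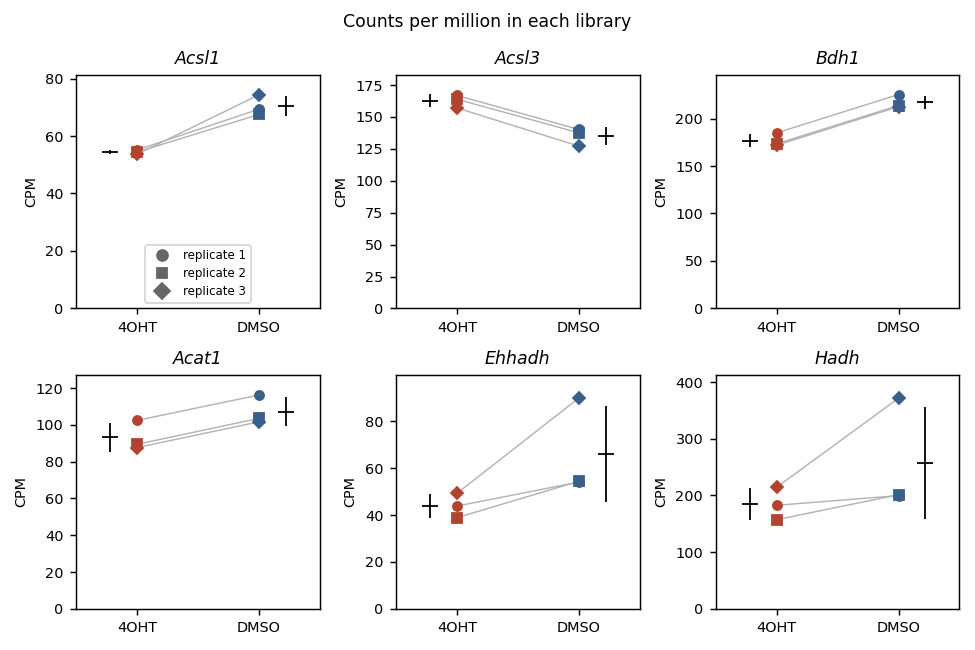
CPM of the 5 called genes and of Hadh in each library, with 4OHT at the left and DMSO at the right of each panel, lines joining libraries with the same replicate number, and black bars giving the mean and SD of 3 libraries. Acsl1 lies at 53.7 to 55.1 CPM in the 4OHT libraries and 67.5 to 74.3 CPM in the DMSO libraries, while in Ehhadh and Hadh the DMSO replicate 3 library lies far above the others.

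The acyl-CoA synthetases, which activate long-chain fatty acids, held Acsl1, called lower in both fits, and Acsl3, called higher only with the replicate block. Acsl1, on chromosome 8 at chr8:46471037-46536051 of GRCm38, had 55.1, 54.4 and 53.7 CPM in the 4OHT libraries, against 69.3, 67.5 and 74.3 CPM in the DMSO libraries. The 4OHT values lay close together and all below the DMSO values, also without DMSO replicate 3. The means were 54.4 ± 0.736 CPM in the 4OHT group and 70.4 ± 3.54 CPM in the DMSO group (SD, n = 3 each). Acsl1 fell by 0.37 on the log2 scale (SE 0.0569; adjusted p = 0.0439, edgeR), and the adjusted p was 0.0206 with the replicate block. Without DMSO replicate 3 the log2 fold change was -0.34 (adjusted p = 0.0306), while leaving out any other single library gave -0.40 to -0.36 with adjusted p of 0.110 to 0.190.

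Acsl3, a synthetase of the endoplasmic reticulum and lipid droplets on chr1:78657825-78707743, had 167, 164 and 157 CPM in the 4OHT libraries, against 140, 138 and 127 CPM in the DMSO libraries. Every 4OHT library was above every DMSO library, and replicate 3 was the lowest of both groups. The means were 163 ± 5.05 CPM in the 4OHT group and 135 ± 6.85 CPM in the DMSO group (SD, n = 3 each). The log2 fold change was 0.27 (SE 0.0594; adjusted p = 0.0979, edgeR), and Acsl3 was called higher with the replicate block (log2 fold change 0.27, SE 0.0410; adjusted p = 0.0245). In the block fit the adjusted p was 0.0833 without replicate 1 of both groups and 0.169 without replicate 2, so the call was lost. Without replicate 3 of both groups it was 0.000291. The differences within the same-numbered pairs, on the log2 scale, were 0.25, 0.25 and 0.30 for Acsl3 and -0.33, -0.31 and -0.47 for Acsl1. Of the other synthetases, Acsl4, which prefers arachidonic acid, had 19.5, 22.2 and 14.2 CPM in the 4OHT libraries and 17.7, 17.3 and 12.4 CPM in the DMSO libraries. Its groups overlapped, replicate 3 was lowest in both, and its log2 fold change of 0.23 (SE 0.199) was not called. Acsl5 had a log2 fold change of -0.04 (SE 0.0699).

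The start regions of Acsl1 and Acsl3 are printed because these synthetases were called in opposite directions in the fit with the replicate block. They are RefSeq promoter windows on GRCm38.p6, each from 250 bases before to 50 bases after an annotated start, with the transcribed bases in capitals. RefSeq gives Acsl1 an upstream and a downstream start, both on the plus strand, at chr8:46470787-46471086 and chr8:46490716-46491015, and Acsl3 a start at chr1:78657575-78657874, also on the plus strand.
Acsl1 upstream start: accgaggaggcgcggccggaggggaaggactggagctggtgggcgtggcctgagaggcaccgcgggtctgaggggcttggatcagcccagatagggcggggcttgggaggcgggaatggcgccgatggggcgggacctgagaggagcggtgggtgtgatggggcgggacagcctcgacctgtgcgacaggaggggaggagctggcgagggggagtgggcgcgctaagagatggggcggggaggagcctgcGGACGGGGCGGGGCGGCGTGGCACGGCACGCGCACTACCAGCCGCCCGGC
Acsl1 downstream start: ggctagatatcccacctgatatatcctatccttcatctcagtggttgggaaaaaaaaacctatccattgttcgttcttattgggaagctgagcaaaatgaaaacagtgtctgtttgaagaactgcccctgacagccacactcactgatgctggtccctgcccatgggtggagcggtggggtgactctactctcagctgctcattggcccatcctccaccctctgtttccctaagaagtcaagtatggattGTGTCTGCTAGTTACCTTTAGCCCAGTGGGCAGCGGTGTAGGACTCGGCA
Acsl3 start: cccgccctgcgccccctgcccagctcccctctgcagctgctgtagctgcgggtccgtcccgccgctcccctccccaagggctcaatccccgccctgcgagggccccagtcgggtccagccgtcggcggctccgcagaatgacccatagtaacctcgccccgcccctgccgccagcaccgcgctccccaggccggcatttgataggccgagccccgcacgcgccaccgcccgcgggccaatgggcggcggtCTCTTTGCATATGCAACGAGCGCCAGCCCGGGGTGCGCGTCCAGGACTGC

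The upstream Acsl1 window and the Acsl3 window were alike in composition, with 74.0% G and C in each and 30 and 33 CpG steps. The downstream Acsl1 window had a lower share of G and C and 4 CpG steps, beside a median of 52.7% and 7 CpG steps over all 32851 windows of the table. The counts are summed per gene, so they do not say which Acsl1 start the transcripts came from. Exact matches to CAAAGTCCA, a word of the HNF4 type, and to CAAAGGTCA, the core of a direct repeat bound by HNF4 and PPAR-RXR dimers, were searched on both strands. Of the 41 genes, 35 had a window, and none of their 38 windows held either word. Over the whole table, 0.475% of windows held CAAAGTCCA and 0.478% held CAAAGGTCA. This says only that these letters are not in windows of 300 bases.

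Ketone body enzymes were lower in the 4OHT libraries in every same-numbered pair. Bdh1 had 185, 173 and 172 CPM in the 4OHT libraries, against 225, 214 and 212 CPM in the DMSO libraries. Every 4OHT value was below every DMSO value, and replicate 1 was the highest in both groups. Its log2 fold change was -0.30 (SE 0.0573; adjusted p = 0.0717, edgeR), and it was called lower with the replicate block (-0.30, SE 0.0408; adjusted p = 0.0206). Acat1, the mitochondrial acetoacetyl-CoA thiolase, had 103, 89.5 and 87.7 CPM in the 4OHT libraries, against 116, 104 and 102 CPM in the DMSO libraries. Replicate 1 was again the highest in both groups, and 4OHT replicate 1 lay between DMSO replicates 2 and 3, so the groups overlapped by a narrow margin. The log2 fold change was -0.20 (SE 0.0838; adjusted p = 0.326), and Acat1 was called lower with the block (-0.20, SE 0.0396; adjusted p = 0.0426). The pair differences, on the log2 scale, were -0.29, -0.30 and -0.31 for Bdh1 and -0.18, -0.21 and -0.21 for Acat1. Neither gene was highest in replicate 3 of its group, unlike most of the other enzymes.

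The peroxisomal chain had a median log2 fold change of -0.32 over 6 genes, and -0.20 over 9 genes with Crot, Decr2 and Eci2 counted in. All 6 genes of the chain were below 0, beside 50.8% of all tested genes. Each was highest in replicate 3 within the DMSO group, and the median log2 pair differences were -0.20, -0.21 and -0.51. Without the block 0 were called, beside 0.206% of all tested genes called lower. With the block 1 was called lower, beside 3.0% of all tested genes. That gene was Ehhadh, the peroxisomal bifunctional hydratase and dehydrogenase, with 43.9, 38.9 and 49.3 CPM in the 4OHT libraries, against 54.1, 54.4 and 89.9 CPM in the DMSO libraries. The 4OHT values were all below the DMSO values, and DMSO replicate 3 stood well above the other libraries. The log2 fold change was -0.59 (SE 0.209; adjusted p = 0.254, edgeR), and with the block it was -0.55 (SE 0.108; adjusted p = 0.0415). Without DMSO replicate 3 and no block it was -0.31 (adjusted p = 0.191), and without replicate 3 of both groups it was -0.40 (adjusted p = 0.0371). Acox2, the oxidase of branched chains and bile acid precursors, had 20.4, 25.8 and 24.6 CPM in the 4OHT libraries and 25.9, 29.0 and 38.0 CPM in the DMSO libraries. The groups lay side by side without overlap, at a log2 fold change of -0.39 (SE 0.158; adjusted p = 0.311, and 0.0729 with the block). Acox3, another branched-chain oxidase, had -0.06 (SE 0.0675), and Hsd17b4, the multifunctional enzyme of branched chains, had -0.25 (SE 0.163).

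The last step of the peroxisomal chain is the thiolase, encoded in mice by the near-identical genes Acaa1a and Acaa1b on chromosome 9. Acaa1b had 14.9, 9.89 and 20.0 CPM in the 4OHT libraries and 18.5, 16.2 and 51.4 CPM in the DMSO libraries. The groups overlapped, and DMSO replicate 3 was more than any other library by a wide margin. Its log2 fold change was -0.94 (SE 0.475; adjusted p = 0.415, and 0.0641 with the block), and -0.22 (adjusted p = 0.732) without DMSO replicate 3. Without replicate 3 of both groups Acaa1b had -0.49 (adjusted p = 0.224, edgeR). With the block as well it was called lower at -0.51 (adjusted p = 0.000765), in a fit that called 8.16% of its tested genes lower. Acaa1a had 102, 87.9 and 114 CPM in the 4OHT libraries and 98.5, 95.3 and 143 CPM in the DMSO libraries, with overlapping groups and a log2 fold change of -0.15 (SE 0.172). The coding sequences of Acaa1a and Acaa1b are both 1275 bases long and 96.5% identical in the annotation used. Their longest shared run is 327 bases, and 38.1% of 50-base windows of each occur in the other. The first 90 coding bases show how little separates them, with the 3 differing bases in capitals.
Acaa1a: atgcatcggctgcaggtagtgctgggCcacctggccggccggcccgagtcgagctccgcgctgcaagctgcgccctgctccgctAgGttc
Acaa1b: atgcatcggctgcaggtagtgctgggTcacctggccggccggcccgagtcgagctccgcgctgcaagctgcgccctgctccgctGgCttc
The way the authors' counting dealt with reads that fit both genes is not given in the sources used here, so the separate values of Acaa1a and Acaa1b are uncertain.

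The acyl-CoA thioesterases, which release free fatty acids from coenzyme A, form another such pair. The coding sequences of Acot1, the cytosolic enzyme, and Acot2, the mitochondrial one, are 95.5% identical over 1239 aligned bases, so their separate values are uncertain too. Acot1 had 32.1, 29.5 and 29.8 CPM in the 4OHT libraries and 32.4, 32.4 and 50.2 CPM in the DMSO libraries. The groups did not overlap, but 4OHT replicate 1 and DMSO replicate 1 differed by less than 1 CPM and DMSO replicate 3 stood alone. The log2 fold change was -0.33 (SE 0.174; adjusted p = 0.433). Acot2 had 3.84, 3.91 and 4.61 CPM in the 4OHT libraries and 3.47, 4.08 and 7.15 CPM in the DMSO libraries, with overlapping groups and a log2 fold change of -0.25 (SE 0.275).

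The 4 genes of the carnitine shuttle had a median log2 fold change of -0.10, and 0 were called in either fit. Of all tested genes, 0.206% were called lower and 0.701% higher without the block, and 3.0% and 3.99% with it. Cpt1a, the outer-membrane carnitine palmitoyltransferase that limits the entry of long chains, had 258, 221 and 288 CPM in the 4OHT libraries and 223, 208 and 280 CPM in the DMSO libraries. The groups overlapped, replicate 3 was the highest and replicate 2 the lowest of both, and the 4OHT library was the higher in each same-numbered pair. The log2 fold change was 0.11 (SE 0.138; adjusted p = 0.762), and with the block it was 0.11 (SE 0.0508; adjusted p = 0.237). Cpt2, the inner-membrane transferase, had a log2 fold change of -0.05 (SE 0.142). Crat and Crot, which move short and medium chains, had -0.15 (SE 0.167) and -0.20 (SE 0.108).

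The acyl-CoA dehydrogenases, which open each round of mitochondrial beta-oxidation, had a median log2 fold change of -0.08 over 8 genes. In either fit 0 were called, beside 3.0% of all tested genes called lower and 3.99% called higher with the block. Acadvl, for very long chains, had -0.10 (SE 0.141) and Acadl, for long chains, had -0.03 (SE 0.0772). Acadm, for medium chains, had 78.6, 76.6 and 92.6 CPM in the 4OHT libraries and 84.0, 82.7 and 118 CPM in the DMSO libraries. Its log2 fold change was -0.20 (SE 0.150; adjusted p = 0.593), with 4OHT lower in all 3 pairs but overlapping groups. Acads, for short chains, had -0.03 (SE 0.0639), and Acadsb, for short branched chains, had -0.09 (SE 0.159). Acad9, which also helps to assemble respiratory complex I, had -0.07 (SE 0.0635). Acad10 and Acad11, the remaining members of the family, had -0.05 (SE 0.165) and -0.28 (SE 0.248). In Acad11 DMSO replicate 3 was 89.7 CPM, against 54.9 and 49.4 CPM in DMSO replicates 1 and 2, and the 4OHT libraries ran from 42.1 to 64.1 CPM.

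The 6 mitochondrial hydratase, dehydrogenase and thiolase genes had a median log2 fold change of -0.09. Again 0 were called in either fit, beside 3.0% of all tested genes called lower and 3.99% called higher with the block. Hadha and Hadhb, the subunits of the trifunctional protein, had -0.05 (SE 0.0980) and -0.10 (SE 0.104). They start within 100 bases of each other on opposite strands of chromosome 5, and the strand setting of the counting is not given in the sources used here. Echs1, the short-chain enoyl-CoA hydratase, had 111, 108 and 105 CPM in the 4OHT libraries, against 115, 115 and 117 CPM in the DMSO libraries. Its groups did not overlap, by a small margin, at a log2 fold change of -0.10 (SE 0.0486; adjusted p = 0.386). Hadh, the short-chain 3-hydroxyacyl-CoA dehydrogenase, had 183, 157 and 215 CPM in the 4OHT libraries and 200, 201 and 371 CPM in the DMSO libraries. The groups overlapped and DMSO replicate 3 was far above the rest. The log2 fold change of Hadh was -0.48 (SE 0.255; adjusted p = 0.438, and 0.0971 with the block), and -0.12 without DMSO replicate 3. Without replicate 3 of both groups Hadh had -0.24 (adjusted p = 0.158, edgeR). With the block as well it was called lower at -0.25 (adjusted p = 0.00141), in a fit that called 8.16% of its tested genes lower. Hsd17b10, which acts on branched chains and in mitochondrial RNA processing, had -0.09 (SE 0.0664), and Acaa2 had 0.01 (SE 0.176).

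The auxiliary enzymes, which handle the double bonds of unsaturated fatty acids, and the electron transfer flavoprotein had medians of -0.17 over 5 genes and -0.21 over 3 genes. None of the 8 was called in either fit, beside 3.0% of all tested genes called lower and 3.99% called higher with the block. Eci1 and Eci2, the enoyl-CoA isomerases, had -0.22 (SE 0.125) and -0.01 (SE 0.118). Decr1 and Decr2, the dienoyl-CoA reductases of mitochondria and peroxisomes, had -0.25 (SE 0.136) and -0.17 (SE 0.0866), and Ech1 had -0.01 (SE 0.156). Etfa and Etfb, the flavoprotein subunits, and Etfdh, the dehydrogenase that passes their electrons to ubiquinone, had -0.22 (SE 0.139), -0.20 (SE 0.114) and -0.21 (SE 0.117). Etfdh had 76.2, 72.7 and 86.3 CPM in the 4OHT libraries and 85.2, 80.8 and 106 CPM in the DMSO libraries. Its groups overlapped and 4OHT was lower in all 3 pairs, with an adjusted p of 0.456 without the block and 0.0629 with it, the lowest among the genes not called.

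Pdk4, the kinase that holds back pyruvate dehydrogenase when fatty acids are burned, was barely detected. It had 2, 1 and 5 reads in the 4OHT libraries and 4, 1 and 2 reads in the DMSO libraries, or 0.0281 to 0.126 CPM in the 4OHT group and 0.0272 to 0.111 CPM in the DMSO group. The groups overlapped, and no difference was detectable at this depth.

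**Figure D3:**
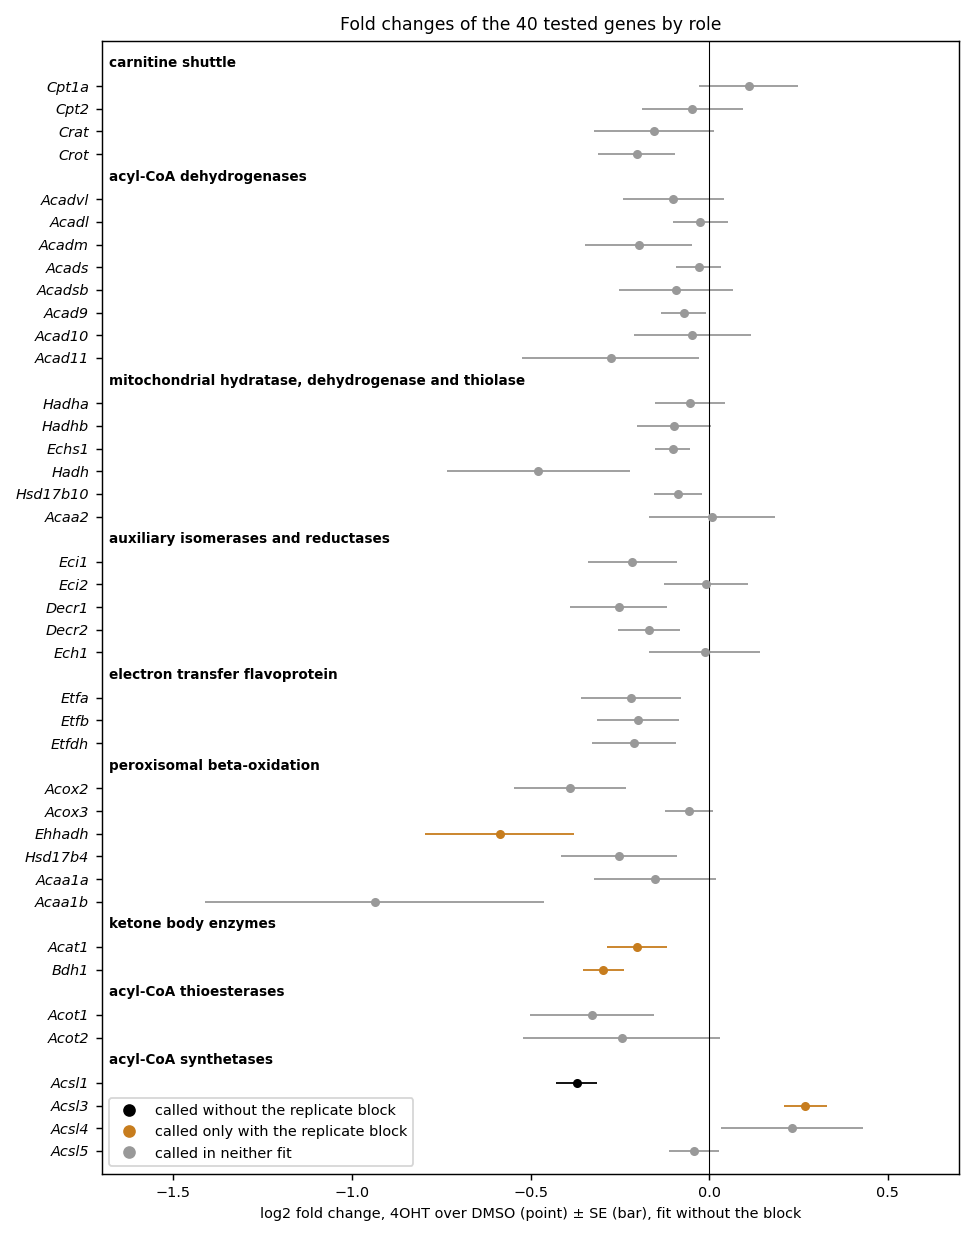
Log2 fold change of 4OHT over DMSO for the 40 tested genes, grouped by role, from the fit without the replicate block, with bars of 1 SE. Acsl1 is the gene called without the block, Bdh1, Acat1, Ehhadh and Acsl3 are called only with it, and 36 of the 40 points lie left of 0.

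Most of the fold changes were small and below 0. Of the 40 tested genes 36 had a log2 fold change below 0, beside 50.8% of all tested genes, and 34 of the 40 were within 0.3 of 0. The median was -0.15, beside -0.00 over all tested genes. In 6 genes (Acsl1, Bdh1, Ehhadh, Echs1, Acot1 and Acox2) every 4OHT value was below every DMSO value, beside 10.1% of all tested genes. Acsl3 was the gene with every 4OHT value above every DMSO value, beside 12.5% of all tested genes. In 20 genes the 4OHT library was the lower in all 3 same-numbered pairs, beside 24.5% of all tested genes, and in 3 genes (Cpt1a, Acsl3 and Acsl4) it was the higher in all 3, beside 25.3%. The median log2 difference over the 40 genes was -0.02 in pair 1, -0.09 in pair 2 and -0.28 in pair 3. The summed level of the 41 genes was 4051, 3865 and 4328 CPM in the 4OHT libraries and 4134, 4051 and 5113 CPM in the DMSO libraries. DMSO replicate 3 lay above all other libraries, which ran from 3865 to 4328 CPM.

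The size of the median and the number of genes below 0 moved with DMSO replicate 3, while the median stayed below 0. That library was the highest of all 6 for 33 of the 40 genes, beside 28.2% of all tested genes. Set against the mean of replicates 1 and 2 within its own group, replicate 3 had a median log2 difference over the 40 genes of 0.15 in the 4OHT group and 0.40 in the DMSO group, and over all tested genes of -0.00 in the 4OHT group and 0.00 in the DMSO group. The largest in the DMSO group were Acaa1b at 1.57, Acot2 at 0.92, Hadh at 0.89, Acad11 at 0.78, Ehhadh at 0.73 and Acot1 at 0.63. Acad9, Acat1, Bdh1, Acsl3 and Acsl4 were lowest in replicate 3 of both groups. Without DMSO replicate 3, 22 of the 40 genes were below 0, beside 51.2% of all tested genes, the median was -0.03, Acsl1 and Bdh1 were called lower, beside 0.587% of all genes tested in that fit, and 0 were called higher, beside 1.71%. Without replicate 3 of both groups, 28 of the 40 were below 0, beside 51.7% of all genes tested in that fit, and the median was -0.08. In that fit Acsl1, Bdh1 and Ehhadh were called lower, beside 1.51%, and Acsl3 was called higher, beside 2.59%.

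**Figure D4:**
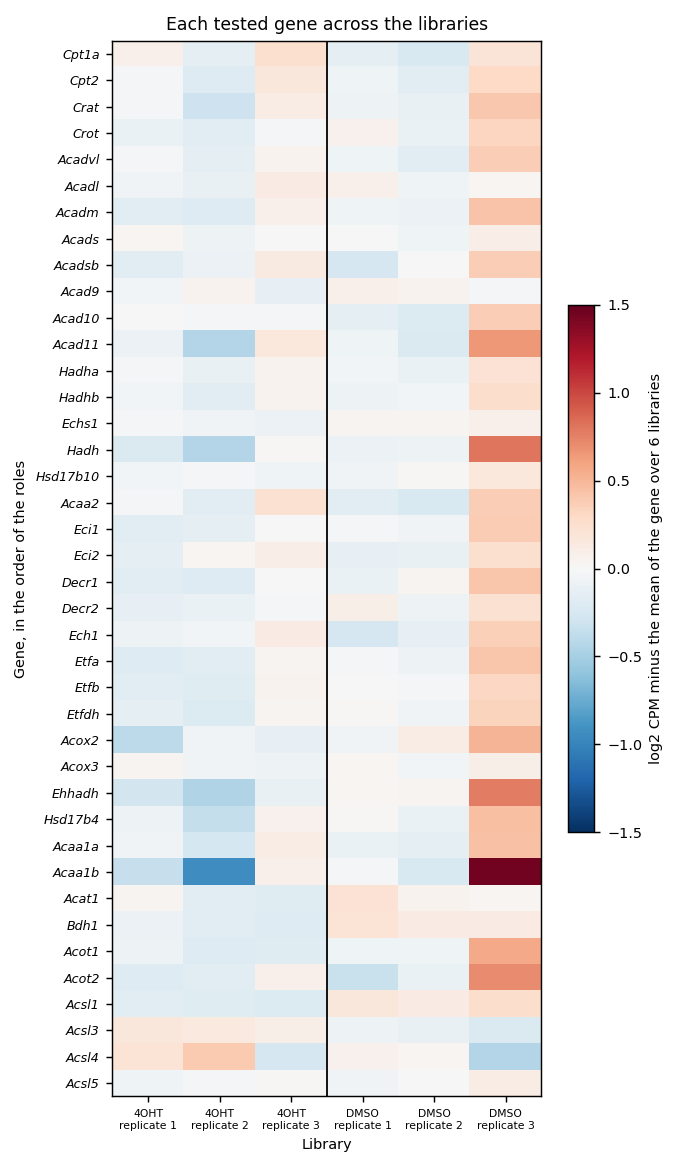
Level of each of the 40 tested genes in each library, as log2 CPM minus the mean of the gene over the 6 libraries, with the 3 4OHT libraries left of the line and the 3 DMSO libraries right of it. Most genes are reddest in DMSO replicate 3, while Acsl1 and Bdh1 are blue in all 4OHT libraries and red in all DMSO libraries, and Acsl3 shows the opposite.

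Markers of absorptive enterocytes moved with the same libraries. All 20 listed enterocyte markers had log2 fold changes below 0, beside 50.8% of all tested genes, with a median of -0.64. Without the block 0 were called, and 8 were called lower with it, beside 3.0% of all tested genes. The summed level of the 20 markers was 4519, 3542 and 5499 CPM in the 4OHT libraries and 5425, 4944 and 9065 CPM in the DMSO libraries. In the DMSO group 18 of the 20 were highest in replicate 3. Goblet cell markers also stood high in replicate 3, but their 10 log2 fold changes were above 0, with a median of 0.52. Of these 10, 0 were called without the block and 6 were called higher with it, beside 3.99% of all tested genes. Proliferation genes were lowest in DMSO replicate 3 for 18 of 18 and in 4OHT replicate 3 for 15 of 18, and their median log2 fold change was -0.01. The part of these cell type differences in the values of the oxidation genes was not tested.

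Other enzymes and carriers of fatty acid and acyl-CoA metabolism, none of them among the 41, had a median log2 fold change of -0.13. This list was wider than fatty acid oxidation and held, among others, Acaca, Acacb, Pdk1, Pdk2, Pdk3, Ivd, Pcca and Pccb. Of 57 listed genes 49 were tested, with 39 below 0, beside 50.8% of all tested genes. Without the block 0 were called, and 2 were called lower with it, beside 3.0% of all tested genes. The called genes were Phyh, the peroxisomal phytanoyl-CoA hydroxylase, and Acot11, a thioesterase. Phyh had 26.9, 21.6 and 24.3 CPM in the 4OHT libraries, against 34.6, 34.2 and 40.9 CPM in the DMSO libraries. Its groups did not overlap, at a log2 fold change of -0.59 (SE 0.109; adjusted p = 0.0654, and 0.0232 with the block). Acot11 had -0.25 (SE 0.121; adjusted p = 0.389, and 0.0446 with the block). Slc27a2, a very long-chain acyl-CoA synthetase and transporter, had -0.93 (SE 0.290; adjusted p = 0.201). Acsf3, the malonyl-CoA synthetase, and Acad8, the isobutyryl-CoA dehydrogenase, had -0.21 (SE 0.0666) and -0.15 (SE 0.0565), and neither was called. Of 16 tested peroxisome assembly genes 15 were below 0, with a median of -0.10 and 0 called in either fit. Among them were Pex13 at -0.24, Pex7 at -0.17 and Pex5 at -0.22. Of the tricarboxylic acid cycle, which burns the acetyl-CoA, all 17 genes were below 0, with a median of -0.15. None was called without the block, and with it Sucla2, a subunit of succinyl-CoA synthetase, was called lower (-0.22, SE 0.0432; adjusted p = 0.0443). Of all tested genes, 0.206% were called lower without the block and 3.0% with it. Dld at -0.15, Sdhb at -0.27 and Idh3g at -0.18 were called in neither fit. Within the DMSO group, replicate 3 was the highest library for 36 of the 49 other enzymes and carriers, beside 41.1% of all tested genes. The same held for 13 of the 16 peroxisome assembly genes and 16 of the 17 cycle genes. The median log2 pair differences of the cycle genes were -0.09, -0.10 and -0.23.

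Of 18 tested regulators of the pathway, 12 had log2 fold changes below 0, beside 50.8% of all tested genes, with a median of -0.11. None was called without the block. With it 3 were called higher, beside 3.99% of all tested genes, and 0 were called lower, beside 3.0%. Ppard, a nuclear receptor that senses fatty acids, had 142, 126 and 145 CPM in the 4OHT libraries, against 108, 101 and 102 CPM in the DMSO libraries. The 4OHT values were all higher, at a log2 fold change of 0.41 (SE 0.0691; adjusted p = 0.0539, and 0.0159 with the block). Pparg, a related receptor best known from fat cells, had 71.8, 62.8 and 84.6 CPM in the 4OHT libraries, against 50.9, 43.1 and 43.1 CPM in the DMSO libraries. Its groups did not overlap either, at a log2 fold change of 0.68 (SE 0.122; adjusted p = 0.0646, and 0.0235 with the block). Prkaa2, a catalytic subunit of AMP-activated kinase, had 0.35 (SE 0.0935; adjusted p = 0.150, and 0.0351 with the block). Ppargc1b, a coactivator of mitochondrial genes, had -0.30 (SE 0.0935) and was called in neither fit. Among 17 tested genes that respond to PPAR receptors, 0 were called without the block. With it 2 were called lower, beside 3.0% of all tested genes, and 2 of the 25 genes listed are also enterocyte markers. Cd36, a fatty acid transporter, had -0.80 (SE 0.379; adjusted p = 0.386, and 0.0247 with the block), and Fabp2, the intestinal fatty acid binding protein and an enterocyte marker, had -0.35 (SE 0.298; adjusted p = 0.641, and 0.0238 with the block). Angptl4 at -0.33, Fabp1 at -0.54 and Plin2 at 0.23 were called in neither fit.

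**Figure D5:**
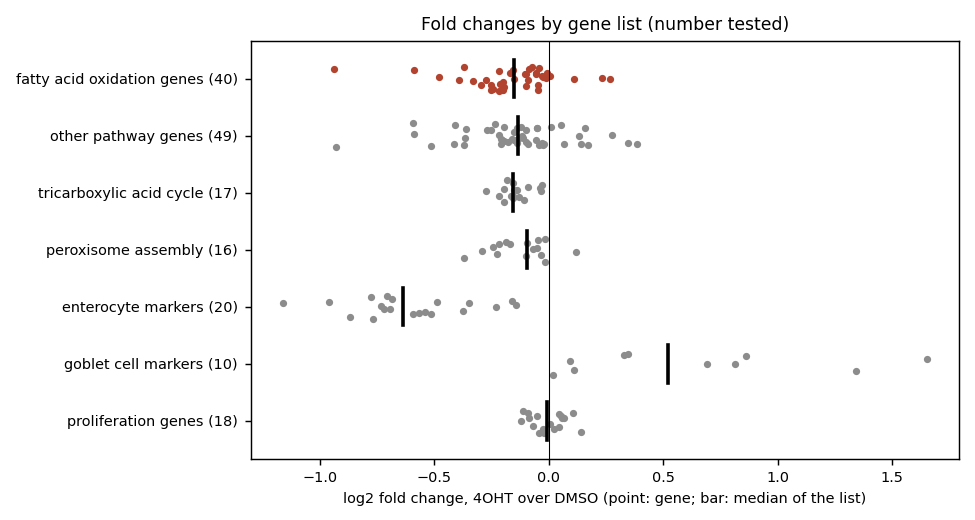
Log2 fold change of 4OHT over DMSO for every tested gene of 7 lists, with the number tested in brackets and a black bar at the median. The 40 fatty acid oxidation genes lie around -0.15 like the other pathway genes and the tricarboxylic acid cycle, while enterocyte markers lie around -0.64 and goblet cell markers around 0.52.

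In the authors' deposited table, which gives adjusted p-values from edgeR and DESeq, 2 of the 41 genes were lower at an adjusted edgeR p under 0.05 and 0 were higher. They were Acsl1 with a log2 fold change of -0.37 (adjusted p = 0.036) and Ehhadh with -0.59 (adjusted p = 0.043), beside 1.23% of the genes in the authors' deposited table. By DESeq in the authors' deposited table, 0 of the 41 were under 0.05.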

How the data were processed

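Messenger RNA of 3 4OHT and 3 DMSO libraries was enriched by poly(A) capture and sequenced after strand-specific cDNA synthesis, per the labels' protocols. STAR 2.4.0f1, bcl2fastq 1.8.4 and GRCm38 are named in the submitters' processing notes, and the gene counter and its strand setting are not given in the sources used here. The authors deposited raw counts per gene, and no gene had fewer than 10 counts in total. A normalised score, a log2 fold change and raw and adjusted p-values were also deposited, per the file headers, and the deposited p-values and log2 values were only set beside the results, while the deposited score was not used.

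Counts were tested in R 4.3.3 with edgeR 4.0.16 (filterByExpr, TMM scaling, quasi-likelihood F test, group only, two-sided, Benjamini-Hochberg adjustment over 14544 genes). The filter removed 3904 genes, Pdk4 among them. Unless another fit is named, adjusted p-values are from this test. CPM uses TMM-scaled library sizes, and an SE is the absolute log2 fold change divided by the square root of F. Gene coordinates and exon lengths came from GENCODE mouse release M21, where 18351 identifiers were found, and sequences from RefSeq and GENCODE. An exon length covers every base in any annotated exon of the gene, which can exceed the length of its transcripts. The test was checked on simulated counts drawn separately for each library, with no replicate effect and no unlike library. The check therefore does not cover calls that depend on the replicate number or on DMSO replicate 3. Across genes, same-numbered libraries deviated from their groups with correlations of 0.303, 0.332 and 0.427, all over 0.1, and on that ground, taken from these data and not from the labels, the numbers pair the libraries. The block value is printed where it changes a call. The labels do not say that replicates came from separate animals or lines, and p-values then reflect only how much these libraries vary, which may be technical variation. Alternatives used DESeq2 1.42.0, limma 3.58.1, other filters and scalings, the replicate block and fits without single libraries.

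The 41 genes and the gene lists were chosen with earlier results of these data known. From each list outside the 41, up to 4 tested genes with the smallest p-values and every called gene are named, apart from an item that is not reported here. Values per library are given in full for those of the 41 genes that were called, the 6 highest per kilobase, Cpt1a and Pdk4, and others shown so were chosen after their values were seen.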

Additional observations from a re-analysis of the deposited data

How the results depend on the processing

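The replicate block gave 580 genes called higher and 437 called lower over the whole table, against 102 and 30 without it, and among the oxidation genes 1 called higher and 4 called lower, against 0 and 1. DESeq2 gave 496 and 266 over the whole table and 1 (Acsl3) and 2 (Acsl1 and Bdh1) among the oxidation genes, and keeping genes of at least 10 CPM gave 42 and 18 over the whole table. Without replicate 3 of both groups the counts were 379 and 222, and 1 and 3 among the oxidation genes. Leaving out each library in turn gave 3 to 253 called higher and 1 to 87 called lower over the whole table, and 0 to 2 lower among the oxidation genes. The upper ends came without DMSO replicate 3. With the block, alternatives added after seeing the data gave 275 and 363 without replicate 1 of both groups (4 oxidation genes lower: Acaa1b, Acsl1, Ehhadh and Hadh), 34 and 10 without replicate 2 (0 lower), and 1482 and 1196 without replicate 3 (3 higher: Acsl3, Acsl4 and Cpt1a; 10 lower). The 10 called lower in that last fit were Acaa1b, Acat1, Acox2, Acsl1, Bdh1, Ehhadh, Etfa, Etfdh, Hadh and Hsd17b4. The cause of these differences was not tested. Hnf4a was called in the full fit but in only 1 of the 6 fits without a single library, with adjusted p from 0.00543 to 0.0951. The median of the oxidation genes was below 0 in all 17 alternatives, from -0.24 to -0.03.

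Sign changes were seen in 16 genes, none called in either full fit. Leaving out each library in turn gave log2 fold changes of -0.258 to 0.0551 for Acaa1a, -0.107 to 0.217 for Acaa2, -0.155 to 0.149 for Acad10, -0.438 to 0.0277 for Acad11, -0.097 to 0.0244 for Acadl, -0.072 to 0.0092 for Acads, -0.226 to 0.0814 for Acadsb, -0.207 to 0.0736 for Acadvl, -0.443 to 0.118 for Acot2, -0.0765 to 0.0004 for Acsl5, -0.146 to 0.101 for Cpt2, -0.254 to 0.0258 for Crat, -0.131 to 0.185 for Ech1, -0.0737 to 0.113 for Eci2, -0.12 to 0.0439 for Hadha and -0.159 to 0.0097 for Hadhb. Without replicate 3 of both groups the values were 0.0021 for Cpt2, 0.0283 for Acadvl, 0.0016 for Acads, 0.154 for Acad10, 0.0035 for Hadha, 0.0597 for Eci2, 0.12 for Ech1 and 0.0277 for Acot2. With the block as well they were 0.0006 for Cpt2, 0.028 for Acadvl, 0.0009 for Acads, 0.154 for Acad10, 0.0028 for Hadha, 0.0582 for Eci2, 0.121 for Ech1 and 0.0294 for Acot2. With the block and without replicate 1 of both groups, Acadl was at 0.0174 and Acaa2 at -0.0471. Acaa2 was at -0.0008 with no filter, Eci2 at 0.0038 and Ech1 at 0.0092 by limma-voom, and Ech1 at 0.0077 with the block.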
